A study of Homo sapiens with 4 samples.

Results

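The loops described here are chromatin contacts that were listed in both drug-treated libraries and in neither vehicle library of an SMC1 HiChIP study of GM12878, an established human B-lymphoblastoid cell line. SMC1 is a core subunit of cohesin, and HiChIP joins DNA ends in fixed nuclei and then precipitates the protein, so that contacts held near cohesin are enriched. The 4 libraries were cells treated with 0.4 µM aphidicolin (APH) for 18 h, cells treated with 0.2 mM hydroxyurea (HU) for 18 h, and their vehicle controls, dimethyl sulfoxide (DMSO) for APH and water (H2O) for HU, with 1 library each. A loop is a pair of 5 kb bins (its anchors) on 1 of the chromosomes 1 to 22 and X. The rule asked for the same pair of bins in the APH and HU lists and its absence from the DMSO and H2O lists, and 2380 of the 41846 loops listed in any library met it (5.69%). The listing itself chose these loops, so their presence under the drugs is a description and was not tested, and an unlisted pair is not a measured 0.

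Aphidicolin inhibits the replicative DNA polymerases, and hydroxyurea inhibits ribonucleotide reductase, the enzyme that makes deoxyribonucleotides. Both slow replication forks by different routes and are used to induce replication stress. Cohesin is a ring-shaped complex that extrudes chromatin into loops, often until it meets bound CTCF, and it also holds sister chromatids together from S phase onward. A single line in 1 culture per condition models cells under mild replication stress only in part, and loops do not report transcription or cell cycle phase, neither of which was measured. Of 28 B cell identity genes, 24 had an anchor of some listed loop, against 13 of 20 T cell markers and 11 of 20 myeloid and erythroid markers. The epithelial genes had 14 of 20, the muscle and heart and the neuronal genes 11 of 20 each, and all protein-coding genes 9473 of 19974. A loop list holds no expression, so the cell type was taken from the labels.

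The deposited lists held 27395 loops for APH and 21448 for HU, and for their vehicles 17660 (DMSO) and 22446 (H2O). Every list stopped at the same lowest count of 12 contacts and at an observed count 2 times the expected one, whatever the depth of the library. The deposited adjusted p-values also ended just below 0.01 in every list. For pairs that stood alone, outside any cluster of called pairs, they ended at 9.98e-05 to 9.99e-05. APH was the longest list and had the highest total over the 9529 loops listed in all 4 libraries (376948 contacts, against 322048 in HU, 325634 in H2O and 300320 in DMSO). A loop just under a limit is therefore more easily unlisted in DMSO than in APH, and list length and treatment cannot be told apart with 1 library per group. Of the APH list 8.69% was listed only under both drugs (8.36 to 9.03%, a 95% exact binomial interval), and of the HU list 11.1% (10.7 to 11.5%). Intervals cover counting error alone, as no group had a replicate, and reads of 1 molecule may have been counted more than once.

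At 568 of the 2380 loops (23.9%) an anchor held the transcription start of a protein-coding gene, and both anchors did at 41 (1.72%). Over all listed loops these shares were 23.3% and 2.03%, so start sites were about as frequent in the set as in the lists as a whole. Promoters of 6 genes to which the results below return are printed because the start site of each lies in an anchor of at least 1 of these loops. Each line gives the 250 bases before the RefSeq start site, 5′ to 3′ on the gene's strand, from the table of build GRCh38.p14. The first, FES, lies at chr15:90884796-90885045 on the plus strand and is followed by NR6A1 at chr9:124771312-124771561 on the minus strand, PCNA at chr20:5126623-5126872 on the minus strand and the upstream one of the RRM2 starts, at chr2:10122318-10122567 on the plus strand. STAG1 follows at chr3:136752379-136752628 on the minus strand and USP3 at chr15:63504343-63504592 on the plus strand. The last 4 were chosen after their values were seen, FES and NR6A1 for their number of loops. Capitals mark matches, on either strand and including overlapping ones, to 4 motifs: a CTCF core (CC, any 3 bases, AG, any 2 bases, GGC), the GC box (GGGCGG), an ETS core (CCGGAAGT) and an E2F site (TTTCCCGC).
FES: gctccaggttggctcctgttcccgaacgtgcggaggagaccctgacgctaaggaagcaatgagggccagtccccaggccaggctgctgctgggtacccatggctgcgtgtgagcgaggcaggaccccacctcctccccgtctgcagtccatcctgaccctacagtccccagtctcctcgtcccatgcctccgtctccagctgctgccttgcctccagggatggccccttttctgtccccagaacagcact
NR6A1: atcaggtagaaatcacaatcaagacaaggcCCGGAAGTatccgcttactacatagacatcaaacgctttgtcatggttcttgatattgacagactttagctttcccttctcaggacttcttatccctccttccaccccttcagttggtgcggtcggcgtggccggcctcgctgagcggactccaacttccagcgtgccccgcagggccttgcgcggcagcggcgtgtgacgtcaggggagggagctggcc
PCNA: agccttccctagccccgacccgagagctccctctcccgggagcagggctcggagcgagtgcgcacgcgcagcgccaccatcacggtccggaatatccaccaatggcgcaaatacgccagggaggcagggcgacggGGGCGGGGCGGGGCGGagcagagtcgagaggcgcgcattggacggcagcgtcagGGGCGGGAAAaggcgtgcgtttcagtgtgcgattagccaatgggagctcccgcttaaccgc
RRM2: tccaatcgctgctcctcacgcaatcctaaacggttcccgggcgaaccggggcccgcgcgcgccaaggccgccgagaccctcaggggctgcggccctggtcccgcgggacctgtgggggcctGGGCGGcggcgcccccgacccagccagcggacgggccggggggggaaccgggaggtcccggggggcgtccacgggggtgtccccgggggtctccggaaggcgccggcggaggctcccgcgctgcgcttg
STAG1: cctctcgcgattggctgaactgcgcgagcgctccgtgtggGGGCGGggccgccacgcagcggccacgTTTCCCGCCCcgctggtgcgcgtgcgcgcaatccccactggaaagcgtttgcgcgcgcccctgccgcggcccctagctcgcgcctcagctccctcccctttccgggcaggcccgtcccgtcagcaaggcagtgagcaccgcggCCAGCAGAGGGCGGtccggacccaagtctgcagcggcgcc
USP3: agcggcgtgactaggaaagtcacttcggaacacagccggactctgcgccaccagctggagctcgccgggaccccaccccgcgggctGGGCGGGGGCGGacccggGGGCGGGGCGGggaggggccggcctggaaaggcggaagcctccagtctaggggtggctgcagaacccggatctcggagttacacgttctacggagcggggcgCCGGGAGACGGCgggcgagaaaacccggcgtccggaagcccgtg

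In these windows, the CTCF core was found before STAG1 and USP3 and not before the other genes, the ETS core only before NR6A1, and the E2F letters before PCNA and STAG1. The FES window held none of the 4 motifs. It lies inside the FES gene, whose body begins at chr15:90884504, so the bases before that upstream end were not looked at. Over the 768 protein-coding promoters inside anchors of loops listed only under both drugs, 15.0% held the CTCF core, against 10.5% of all 22132 protein-coding promoters. The share was 13.6% in the 6036 promoters inside any listed anchor and 15.3% in the 1964 promoters inside anchors of loops listed in all 4 libraries. The GC box was found in 65.0%, against 53.7% of all promoters, 63.6% in any listed anchor and 63.6% in anchors of loops listed in all 4. The ETS core was found in 4.30%, against 4.41% of all promoters, 5.09% in any listed anchor and 4.79% in anchors of loops listed in all 4. The E2F letters were found in 1.30%, against 1.73%, 1.86% and 1.63%. A match of letters is not a bound site.

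Loops listed only under both drugs were short and mostly weak. Their counts ran from 12 to 126 in APH with a median of 18, and from 12 to 102 in HU with a median of 17. The observed count was a median 4.30 times the expected one in APH and 4.42 times in HU, where the lowest values were 2.00 and 2.01. A count under 15 in at least 1 drug library was found at 39.5% of them, and an observed-over-expected ratio under 2.5 at 9.66%, so that 49.2% lay near 1 of these limits; both limits were chosen after the values were seen. At 41 loops the count was 12 in both libraries, and at 358 it was at least 24 in both. In APH 25% of them, and in HU 27%, stood alone rather than in a cluster of called pairs.

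Just outside the rule were 3273 loops listed in both drugs and in 1 vehicle. Of these, 1223 were listed in DMSO, with a median DMSO count of 16, and 2050 in H2O, with a median H2O count of 18. The count in that vehicle was 12, the lowest listed, at 278 of them and under 15 at 27.3%. Many of these 3273 loops were therefore outside the rule by a few contacts, while the vehicle counts of the 2380 loops inside it are not known.

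**Figure D1:**
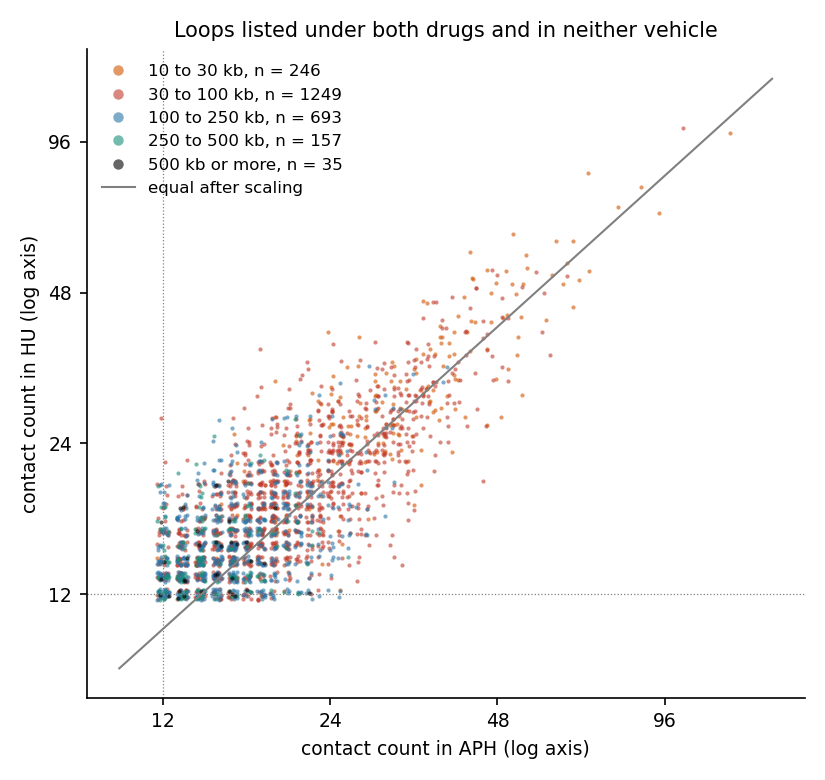
Contact counts of the 2380 loops in APH (horizontal, log axis) and HU (vertical, log axis), coloured by span; points are jittered by at most 0.3 counts, dotted lines mark the lowest listed count of 12, and the grey line marks equal counts after scaling. Most points lie in the corner near 12 contacts (medians 18 and 17), and the 8 loops with most contacts, up to 126 in APH, span 10 to 30 kb.

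The median span was 75 kb (interquartile range 45 to 130.0 kb, from 10 to 1000 kb). Under 100 kb lay 62.8% of the loops (60.8 to 64.8%). Loops exclusive to another pair of libraries were longer: the share under 100 kb was 38.8% for both vehicles, 52.2% for DMSO and APH, 50.7% for H2O and HU, 49.1% for APH and H2O and 55.6% for DMSO and HU. It was 42.6% for loops listed in all 4. Seen by span, the both-drugs loops made up 7.19% of the listed loops of 30 to 100 kb and 3.57% of those of 250 to 500 kb. The short end also lay closest to the ratio limit, since 41.9% of the 246 loops of 10 to 30 kb had a ratio under 2.5 in at least 1 drug, against 9.61% at 30 to 100 kb and 1.01% at 100 to 250 kb. With the lists brought to the same number of loops, the both-drugs share under 100 kb was 74.9%, above the 35.1 to 66.1% of loops exclusive to other pairs.

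**Figure D2:**
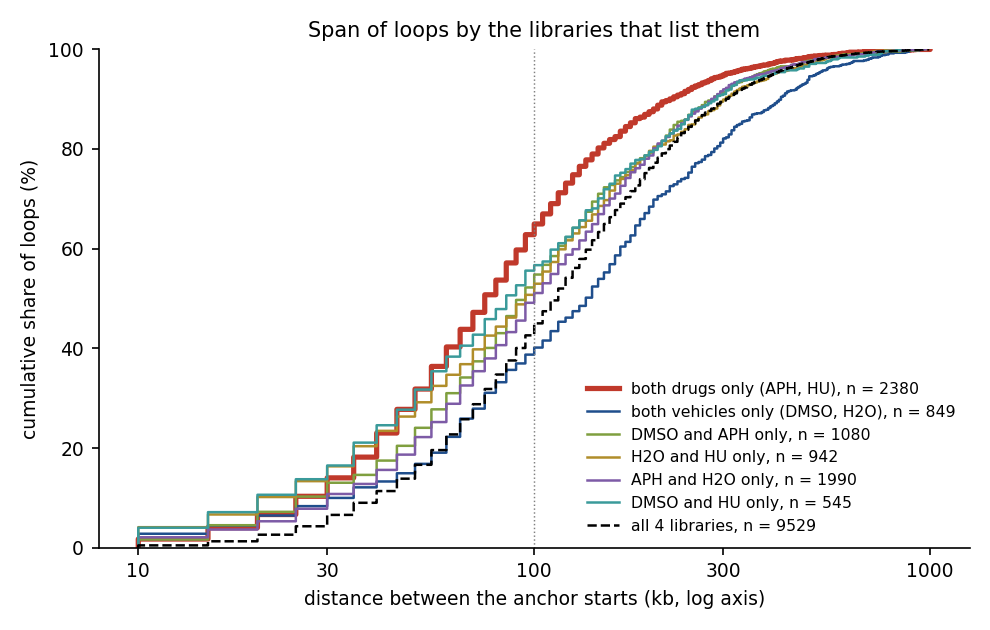
Cumulative share of loops (vertical, %) by the distance between their anchors (horizontal, kb, log axis), for loops exclusive to each pair of libraries and for loops listed in all 4. The both-drugs curve crosses the dotted line at 100 kb at 62.8%, and the both-vehicles curve at 38.8%.

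The number of loops exclusive to a pair depended on list length. As deposited, 2380 loops were exclusive to both drugs, 849 to both vehicles, 1990 to APH and H2O, 1080 to DMSO and APH, 942 to H2O and HU and 545 to DMSO and HU. With the same number of loops per library, highest counts first, 1336 were exclusive to both drugs and 1187 to both vehicles, while the 4 pairs of 1 drug and 1 vehicle had 787 to 947. With a minimum count in proportion to each library's total over all listed loops, the order turned, with 1018 for both drugs and 1260 for both vehicles. The count of 2380 is thus no measure of how many contacts the drugs added.

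Most of these loops used an anchor already in use without drug. Both anchor bins were anchors of some vehicle loop at 29.4% of them (27.6 to 31.3%), 1 bin at 58.7% and neither at 11.9% (10.6 to 13.3%). Counting a vehicle anchor within 1 bin as in use, both were in use at 59.9% and neither at 10.3%, and among the loops with at least 24 counts in both drugs both exact bins were in use at 44.4%. For loops exclusive to another pair, set against the libraries that lacked them, the share with neither bin in use was lower, 4.22 to 7.49%, and the share with both in use was higher, 37.1 to 49.0%. The vehicle lists are shorter, and fewer bins are in use in them, but with the same number of loops per library the both-drugs share with neither bin in use was 14.7%, against 7.24 to 9.29% for the other pairs. The share with both bins in use was then 29.0% (26.6 to 31.6%), against 30.7 to 38.2%, and its interval overlapped that of DMSO and HU (27.6 to 34.0%). Within 30 to 100 kb, neither bin was in use at 10.1% of the both-drugs loops (8.47 to 11.9%) and at 1.75 to 8.88% of the others, whose highest, APH and H2O, had an overlapping interval (7.03 to 11%). Within 100 to 250 kb the shares were 9.96% and 0.968 to 4.36%, and within 10 to 30 kb, at 21.5%, the both-drugs loops lay among the others (10.7 to 22.5%). A vehicle loop within 1 bin at both anchors lay beside 43.3% of them, against 54.8 to 60.7% of loops exclusive to another pair, and within 2 bins beside 51.4%.

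The 283 loops with neither bin in use in a vehicle list had counts close to those of the whole set. Their median count was 19 in APH and 17 in HU, against 18 and 17 in the set, and their median span 60 kb against 75 kb. Counts were higher at short spans: the set's median in APH was 29 at 10 to 30 kb and 16 at 100 to 250 kb. At 221 of the 283 no vehicle anchor lay within 2 bins, either. KAZN and VWA1 had 3 each, of 8 and of 3 listed loops, and were singled out after their values were seen.

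Within the loops shared by all libraries, those of both drugs lay mostly inside. At 60.7% both anchors fell within a longer loop listed in all 4, and 53.5% shared an anchor with such a longer loop. Those shares were much the same for loops exclusive to other pairs, 55.7 to 65.0% and 43.8 to 56.2%. Sharing an anchor with a shorter loop of all 4 libraries that ran the same way was less frequent, 24.7% (23 to 26.5%) against 34.9 to 48.9%. This share also moved with span. At 30 to 100 kb it was 20.3% (18.1 to 22.7%) against 27.7 to 35.3%, and at 100 to 250 kb it was 33.6% (30.1 to 37.3%) against 45.5 to 59.0%. The direction was the same with equal lists, 18.6% against 27.9 to 49.0%.

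**Figure D3:**
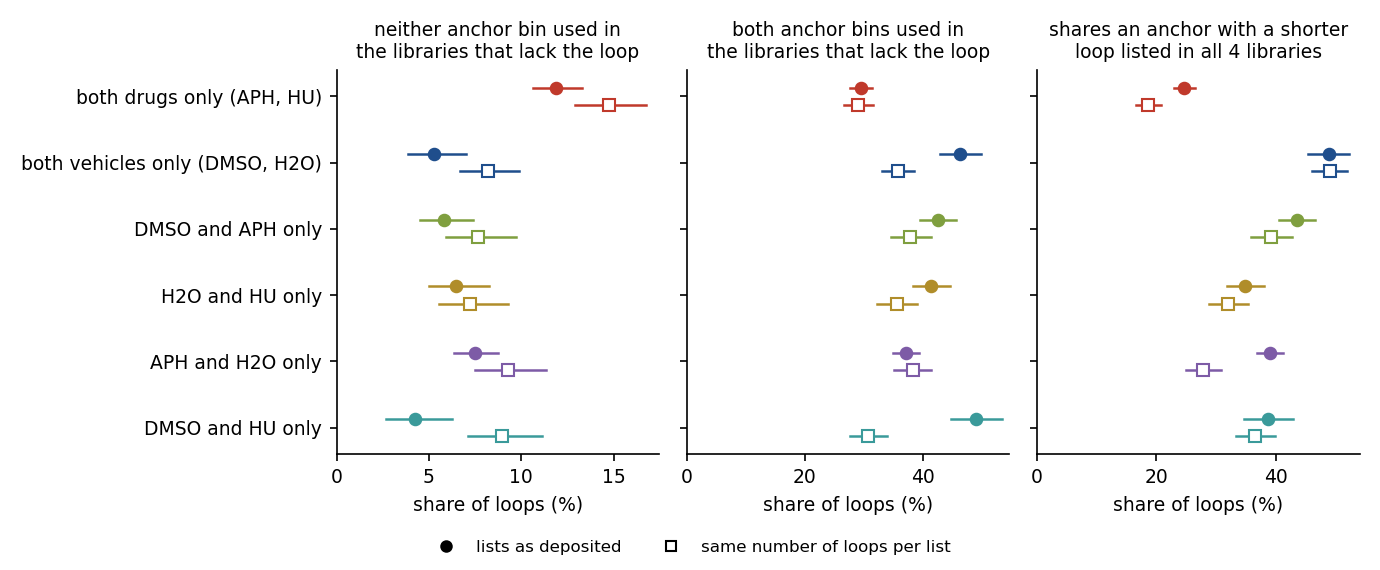
Shares of loops (horizontal, %) exclusive to each pair of libraries, with 95% exact binomial intervals, for lists as deposited (filled circles) and for the same number of loops per list (open squares). The both-drugs loops stand at 11.9% with neither anchor bin in use in the libraries that lack them and at 24.7% beside a shorter loop of all 4 libraries.

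The loops were spread thinly over the genome. Their 2380 pairs used 4342 bins, of which 3973 anchored 1 loop, 327 anchored 2, 35 anchored 3 and 7 anchored 4. Another loop of the set lay within 1 bin at both anchors for 334 of them, and 758 shared a bin with another, so these loops are not independent of each other. By chromosome, 4.49% (chromosome 13) to 7.03% (chromosome 20) of listed loops belonged to the set. Among windows of 1 Mb, chr9:124000001-125000000 held most, 11 of 88 listed loops, and chr20:1-1000000 held 9 of 47. Windows on chromosome 15 (40 to 41 Mb, 9 of 76, and 74 to 75 Mb, 9 of 103) and chromosome 17 (8 to 9 Mb, 9 of 65) followed.

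FES was the only gene with a start site in 1 of the 7 bins with 4 loops. That start lies inside the gene, whose body begins at chr15:90884504, just outside the bin. FES is a cytoplasmic tyrosine kinase, and its neighbour BLM is the RecQ helicase that unwinds DNA at stalled forks. All 4 loops ran from the FES start bin, chr15:90885001-90890000, towards BLM, and 3 of them ended inside the BLM gene. The loop of 100 kb had 17 contacts in APH and 15 in HU. The loop of 85 kb had 14 and 14, that of 75 kb 21 and 16, and that of 65 kb 22 and 22. All 4 were 2.86 to 4.74 times the expected count, and neither vehicle library listed any of them. They share the FES bin, and for the loops of 75 and 65 kb a vehicle loop lay within 1 bin at both anchors. The FES gene had 16 listed loops in all, 5 of them in APH alone, 2 in HU alone, 4 in all libraries, 4 in both drugs only and 1 in all but APH. A loop listed in all 4 libraries spanned 70 kb between the same FES bin and BLM, so vehicle counts exist for it. It had 18 contacts in DMSO and 38 in APH, and 19 in H2O and 41 in HU. This loop lies within 1 bin of loops of the set, so its values are not independent of the rule. Both drug counts there lay above both vehicle counts. The scaled log2 ratio was 0.75 (95% exact conditional interval -0.09 to 1.65) for APH over DMSO and 1.13 (0.31 to 1.99) for HU over H2O. The loop of 240 kb from the same bin to CRTC3, a CREB coactivator, did not share that: its counts were 55 in DMSO and 52 in APH, and 55 in H2O and 41 in HU, a log2 ratio of -0.41 in each comparison with intervals that included 0. Loops of all 4 libraries of 195 and 190 kb from this bin had 26 and 15 contacts in DMSO and 21 and 26 in APH. In H2O they had 30 and 14, and in HU 18 and 16.

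NR6A1, an orphan nuclear receptor best known from germ cells, had most loops of the set, 8 of 36. The 3 loops of 50, 65 and 70 kb ran upstream from its start bin, chr9:124770001-124775000, with 26, 24 and 25 contacts in APH and 28, 18 and 19 in HU. They ended short of 3 loops of all 4 libraries from the same bin, of 75, 80 and 85 kb, which reached up to WDR38 and RPL35. The strongest of these, of 80 kb, had 108 contacts in DMSO and 145 in APH, and 108 in H2O and 121 in HU, a log2 ratio of 0.10 (-0.27 to 0.47) for APH and 0.18 (-0.21 to 0.57) for HU. The other 5 loops lay inside the gene and spanned 40 to 160 kb, with 15 to 32 contacts in APH and 15 to 25 in HU. At 4 of the 8 loops a vehicle loop lay within 1 bin at both anchors.

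**Figure D4:**
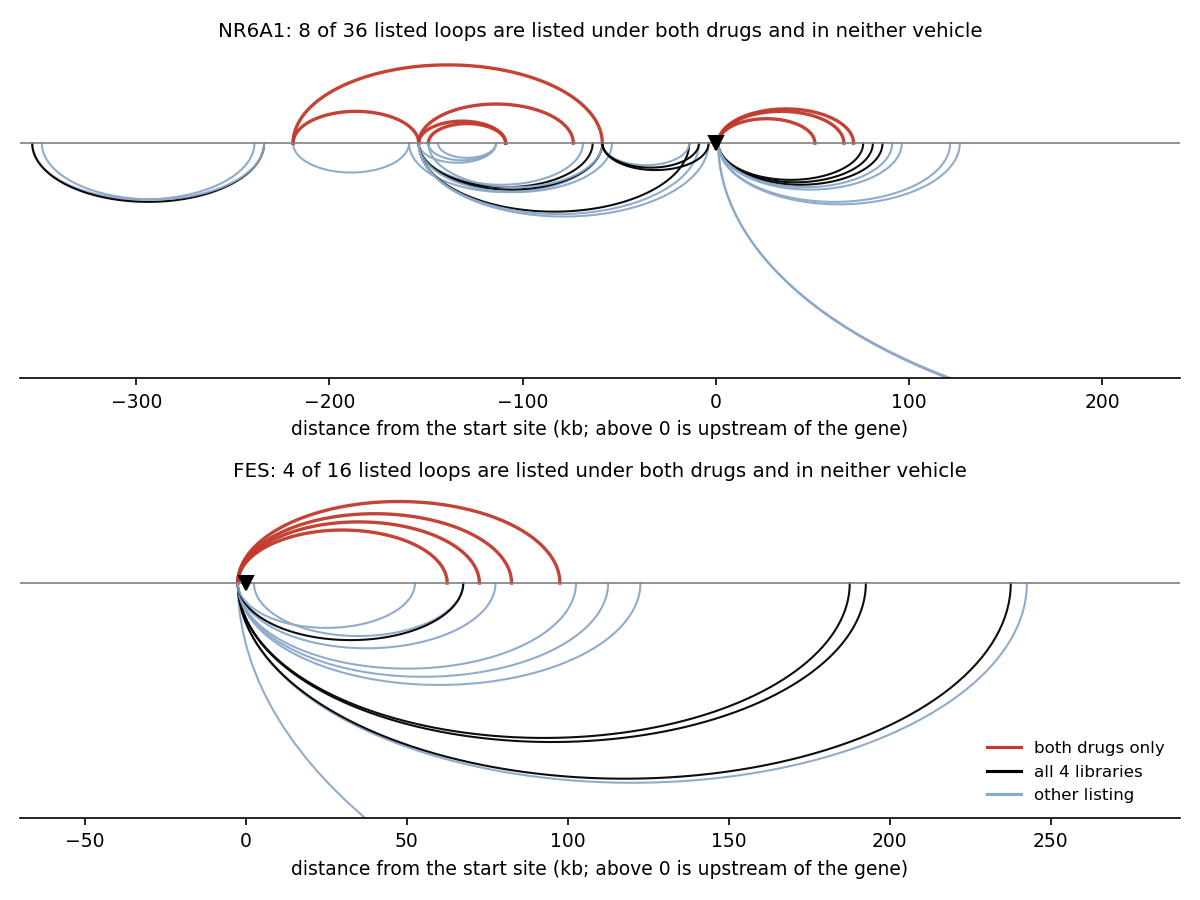
Listed loops with an anchor on NR6A1 (above) and FES (below), drawn by the distance of their anchors from the start site (triangle, kb). Red arcs above the line are the 8 and 4 loops listed only under both drugs, and arcs below it are loops listed in all 4 libraries (black) or in another set of libraries (blue); loops of 600 and 605 kb at NR6A1 and of 565 kb at FES run past the edge. At FES the red arcs span 65 to 100 kb and lie beside the black arc of 70 kb.

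REEP1, which shapes the endoplasmic reticulum, and PDE4D, a cAMP phosphodiesterase in a common fragile site, had 5 loops each, of 21 and 27 listed. All 5 at REEP1 had a vehicle loop within 1 bin at both anchors. At PDE4D this held for 2 of 5, and its longest loop, of 570 kb, had 16 contacts in APH and 20 in HU. Besides FES, the named genes among the 14 with exactly 4 loops were NT5M, a mitochondrial nucleotidase (of 11 listed loops), CTIF, a translation initiation factor (12), OLFM2 (12), IRAG1 (14), ZFP36L2, an RNA-binding protein of mRNA decay (15), AMN1 (17), AOPEP (18) and the readthrough gene FXYD6-FXYD2 (19). With at least 24 counts in both drugs, 2 loops were left at NR6A1, 1 at REEP1 and 0 at PDE4D, and with anchors within 5 kb of a gene end 3, 0 and 0. At AMN1, AOPEP and CTIF no vehicle loop lay within 1 bin of any of the 4, and at OLFM2 one lay beside all 4. CTIF loops of 170 and 175 kb reached bins with the start of SMAD7, an inhibitor of TGF-β signalling, with 15 and 26 contacts in APH and 17 and 15 in HU.

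Of 9473 genes with a listed loop, 2043 had at least 1 loop of the set, 472 at least 2, 101 at least 3 and 17 at least 4. Among genes with at least 10 listed loops, NT5M (36.4%), CTIF and OLFM2 (33.3% each) had the highest shares. ACVR1B, an activin receptor, BICD1, a dynein adaptor, BLM, GDPD5 and PAK5, a kinase, followed with 3 of 10 each. Their intervals were wide (6.67 to 65.2% for 3 of 10). An anchor lay on a gene body at 80.0% of the loops, and both on the same gene at 20.8%, against 80.7% and 19.9% of all listed loops.

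The loops with most contacts were short and stood little above their expected count. The first, of 15 kb, joined chr15:63485001-63490000 to the bin with the start of USP3, a deubiquitinase of histone H2A, with 126 contacts in APH and 100 in HU, 2.32 and 2.27 times the expected counts. The next, chr16:85985001-86020000, had 104 and 102 contacts, 2.01 and 2.45 times expected. Loops at chr11:61060001-61075000 (87 and 78 contacts), on chromosome 8 (94 and 69), at chr1:28090001-28115000 (70 and 83), within SMG6, a nuclease of nonsense-mediated decay (79 and 71), within CASP8, the initiator caspase (66 and 61), and at chr11:118820001-118840000 (61 and 61) followed. All 8 lay between 2.01 and 3.04 times expected. At such loops a vehicle count of the same size would go unlisted if its ratio fell just under 2.

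Genes of DNA replication and its checkpoint had 7 loops of the set among 93 listed (7.53%, 3.08 to 14.9%), against the 5.69% of all listed loops, which lay inside the interval. The 7 loops touched 5 genes of 39 in the list, 25 of which had a listed loop. WEE1, the kinase that holds back CDK1, had 2 listed loops, and both were of the set. They joined neighbouring bins at the gene to chr11:9610001-9615000 over 40 and 35 kb, with 29 and 46 contacts in APH and 30 and 37 in HU. Their ratios were 2.06 to 2.49, near the limit of 2, and 1 contact may have been called as both, since their anchors adjoin. PCNA, the sliding clamp of the replicative polymerases, had 2 of 14, of 40 and 55 kb, both from its start bin into CDS2, with 22 and 17 contacts in APH and 19 and 16 in HU. That bin also holds the start of CDS2, so both loops equally lay within CDS2 and cannot be assigned to PCNA alone. The strongest loop from that bin, of 65 kb, was listed in all 4 libraries with 91 contacts in DMSO and 126 in APH, and 129 in H2O and 117 in HU. The PCNA loops of the set had vehicle loops within 1 bin.

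RRM2, the small subunit of the ribonucleotide reductase that hydroxyurea inhibits, had 1 of 5 listed loops in the set. It spanned 45 kb from the start bin of RRM2 to CYS1, with 26 contacts in APH and 21 in HU, and no vehicle loop lay within 1 bin. POLA1, the catalytic subunit of the polymerase α that aphidicolin inhibits, had 1 of 3, of 390 kb, with 14 contacts in APH and 19 in HU. ORC6, a subunit of the origin recognition complex, had its only listed loop in the set, of 115 kb, with 12 and 13 contacts. It ran from a bin that holds the starts of both ORC6 and VPS35. The result for each of RRM2, POLA1 and ORC6 rests on 1 loop per gene and shows a listing, not a change in the gene's expression.

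Of the genes of cohesin, its regulators and CTCF, 1 of 58 listed loops belonged to the set (1.72%, 0.0436 to 9.24%). It joined the start bin of STAG1, a cohesin subunit, to a bin 205 kb into the gene, with 25 contacts in APH and 25 in HU and ratios of 5.97 and 5.83. A loop of all 4 libraries of 360 kb ran from the same start bin into the gene as well, with 20 contacts in DMSO and 15 in APH, and 13 in H2O and 23 in HU. The p53 and DNA damage targets had 1 of 98 (1.02%, 0.0258 to 5.55%), at GADD45A, a growth arrest gene, with 19 contacts in each drug. The B cell identity genes had 5 of 205 (2.44%, 0.797 to 5.60%), 1 each at BLK, CD22, CD79A, CIITA and SYK. With gene bodies, these 2 lists were the only ones of 15 whose interval did not reach 5.69%, and both upper bounds lay close to it. When a vehicle loop within 1 bin also removed a loop, the share over all listed loops was 3.22%. The B cell list then had 1 of 205 (0.488%, 0.0123 to 2.69%), below that share, and the interval of the p53 list included it. With at least 24 counts, the intervals of both lists included the share over all loops, 2.45%. With anchors within 5 kb of a gene end in place of the gene body, the intervals of both lists included 5.69%. The p53 list then had 3 of 125 (2.40%, 0.498 to 6.85%) and the B cell list 6 of 178 (3.37%, 1.25 to 7.19%). In that setting the intervals of the epithelial genes and the T cell markers, given below, did not include 5.69%.

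The common fragile site genes, long genes that break under aphidicolin, had 11 of 220 loops in the set (5.00%, 2.52 to 8.77%), most often at PDE4D (5). Genes of 500 kb or more had 88 of 1717 (5.13%, 4.13 to 6.28%). Neither share stood above that of all listed loops. The NF-kB and EBV latency targets had 8 of 153 (5.23%), led by MAP3K8 with 2 of 10, and a loop of CCL22, a chemokine, had 44 contacts in APH and 33 in HU. The replication-dependent histones had 2 of 7 loops, 1 of which joined the bin of H1-4 and H2BC5 over 30 kb with 43 and 45 contacts.

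Genes of other cell types were touched too. The T cell markers had 2 of 82 (both at CD247), the myeloid and erythroid markers 3 of 29, the HOX clusters 1 of 56 (HOXB3), the ribosomal proteins 1 of 45 (RPL19), the muscle and heart genes 5 of 56 with 3 at CASQ2, the epithelial genes 8 of 83 with 2 each at SLC5A1 and CDH1, and the neuronal genes 5 of 56 with 2 each at CACNA1A and GRIN2B. All of these intervals included 5.69%.

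**Figure D5:**
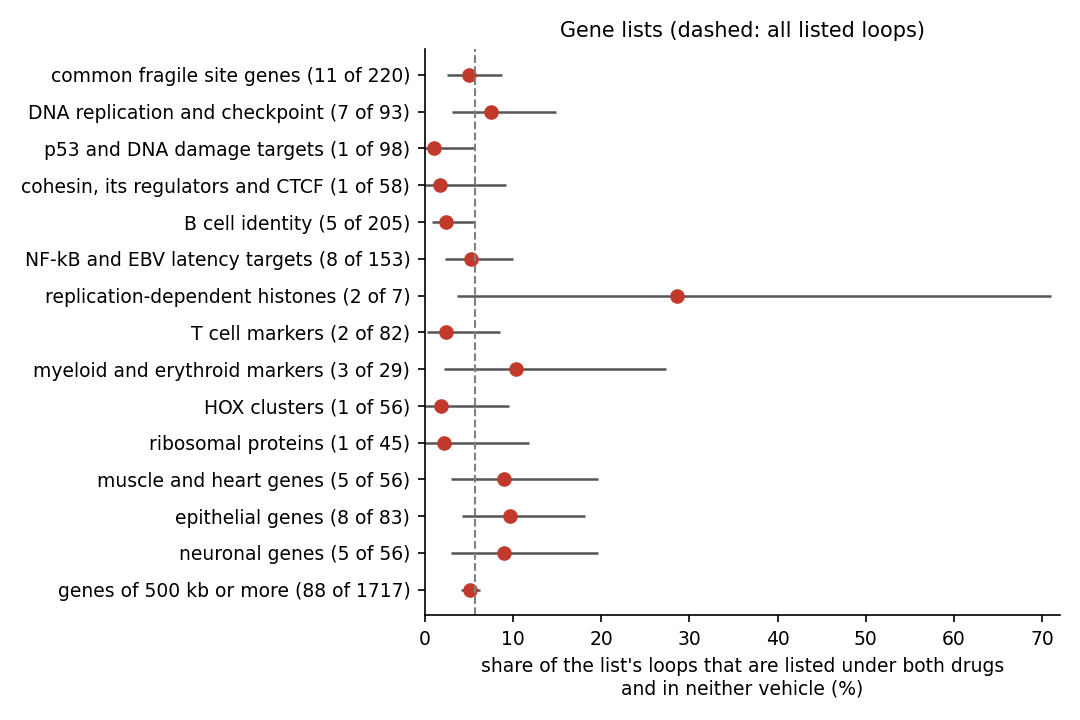
Share of each gene list's listed loops that were listed only under both drugs (horizontal, %), with 95% exact binomial intervals and the numbers beside each name; the dashed line marks the 5.69% of all listed loops. With gene bodies, as drawn, the intervals of the p53 list (1 of 98) and of the B cell list (5 of 205) end just below the line, and the others include it.

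Between the drugs, the counts of these loops were much alike. After scaling by the totals over loops listed in all 4 libraries, the median log2 ratio of APH over HU was -0.13, against -0.08 in loops of both drugs and 1 vehicle and -0.04 in all 15182 loops listed in both drugs. The exact conditional interval excluded equality for 2 loops higher in APH (0.0840%) and 17 higher in HU (0.714%). The shares among all loops listed in both drugs were 1.21% and 1.51%, and those among loops of both drugs and 1 vehicle, whose counts are nearer, 0.244% and 1.04%. A count had to reach 12 in both lists, which limits how far the drugs could differ here. The 2 loops higher in APH ended on RAB37 (32 contacts in APH and 14 in HU, log2 0.97, 0.02 to 1.99) and on CEACAM1, an adhesion molecule (45 and 20, log2 0.94, 0.15 to 1.78).

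The loop furthest towards HU joined FXYD6 to TMPRSS13 over 60 kb, with 18 contacts in APH and 37 in HU (log2 -1.27, -2.17 to -0.42). It was followed by a loop at MYO1D (15 and 27 contacts, -1.08), 1 on chromosome 8 from PIP4P2 to OTUD6B (18 and 31, -1.01), chr5:6780001-6840000 (16 and 27, -0.98) and 1 at BICDL2 and THOC6 (19 and 32, -0.98). Scaled by totals over all listed loops, 0 loops were higher in APH and 61 higher in HU, and the median was -0.32. By observed over expected, 9 were higher in APH and 13 in HU, and the median was -0.033. Scaled by totals over loops listed in all 4 libraries, a loop of 12 contacts under each drug has a log2 ratio of -0.23. Equal counts thus lean towards HU under this scaling. Pooled over the set, the log2 ratio was -0.12 (-0.14 to -0.10), against -0.07 (-0.09 to -0.06) in loops of both drugs and 1 vehicle. Among the set's loops of 10 to 30 kb, with median counts of 29 in APH and 27 in HU, it was -0.11 (-0.16 to -0.07). What lay behind this lean was not tested, and 1 library per group cannot tell a difference between the drugs from one between libraries.

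Loops of all 4 libraries that share a bin with this set have vehicle counts. The set was chosen by its listing in APH and HU and in neither vehicle, which rests on contact counts of the same libraries. Its neighbours were picked through bins shared with it, so their values are not independent of the rule. Their ratios are a description and cannot test a drug effect apart from that choice. There were 2764 such neighbours, and their pooled log2 ratio was 0.01 (0.00 to 0.03) for APH over DMSO and 0.02 (0.01 to 0.03) for HU over H2O. H2O over DMSO gave -0.01 (-0.03 to -0.00086). With the vehicles exchanged, APH over H2O gave 0.027 (0.015 to 0.039) and HU over DMSO 0.008 (-0.005 to 0.020). The median was -0.006 for APH over DMSO and 0.016 for HU over H2O. For APH, 3.29% had an interval above equality and 3.33% below it, against 2.76% and 2.74% of all 9529. For HU, 5.39% were higher and 4.09% lower, against 3.92% and 3.45%. Of the 232 that shared 2 bins, 4.74% were higher and 3.88% lower for APH, and 7.33% and 7.76% for HU. All ratios are relative to the 9529 loops, which include the 2764 and whose pooled ratio the scaling sets to 0.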

How the data were processed

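SMC1 HiChIP of GM12878 was analysed from 4 deposited loop lists, 1 per treatment. Groups follow the treatment in the labels; the titles name another lymphoblastoid line, while source, cell line and library names give GM12878. Per the submitters' processing notes, bcl2fastq 2.17, MACS3 3.0.1 and hg38 were used; aligner and loop caller: not given in the sources used here. Since the lists have no header, columns were read from their values. The deposited contact counts are whole and not normalized. A deposited column of expected counts and the deposited adjusted p-values, all below 0.01, describe each loop.

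Loops were matched by both 5 kb bins on chromosomes 1 to 22 and X. Shares have 95% exact (Clopper-Pearson) intervals and ratios of 2 counts exact conditional binomial intervals. Ratios were scaled by totals over loops listed in all 4 libraries. No p-value was computed, with 1 library per group. Genes are the 19974 protein-coding genes of the RefSeq table (GRCh38.p14); a loop counts for a gene when an anchor overlaps its body. Promoters covered 15812 of these genes. The functions were tested on simulated data. Python 3.11.15, numpy 2.4.6, pandas 2.3.3, scipy 1.17.1 and matplotlib 3.10.9 were used.

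The loops and the gene lists were chosen with earlier results of these data known. The named genes are the 12 with most loops, the 8 with the highest share among those with at least 10 listed loops, the 8 loops with most counts, the 5 furthest to each drug among those with at least 40 counts, the bins and 1 Mb windows with most loops, and list genes with 2 or more; others were singled out after their values were seen. Other limits on counts, equal list lengths, a tolerance of 1 or 2 bins, gene ends in place of bodies and other scalings were tried.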

Additional observations from a re-analysis of the deposited data

How the results depend on the processing

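With 1 library per group nothing separates a treatment from its library, and total read depth is unknown. No paired analysis was possible because the groups share only the number of their single library.

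The 2380 loops fell to 1349 when a vehicle loop within 1 bin also removed a loop, 1156 within 2 bins, 358 with at least 24 counts in both drugs, 1018 with minimum counts in proportion to totals over all listed loops and 1336 with equal lists; absence from DMSO alone gave 4430 and from H2O alone 3603. The ratio of both-drugs to both-vehicles loops, 2.80 as deposited, was 4.45 with at least 24 counts, 1.61 and 0.808 with minimum counts in proportion to totals over shared and over all loops, and 1.13 with equal lists. That 0.808 reverses the order, which no other of these settings did.

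With at least 24 counts the share under 100 kb was 95.3%, the median 30 kb and both anchors in use 44.4%. With minimum counts in proportion to shared loops the share was 71.3% and the median 65 kb. Anchors within 1 bin gave 59.9% both and 10.3% neither; equal lists gave 14.7% neither. Anchors within 5 kb of a gene end gave 60.8% with at least 1 and 2.77% with both on 1 gene; removing loops within 1 bin of a vehicle loop gave 78.1% with at least 1. That removal also gave 50.6% inside a shared loop, 43.3% beside a longer and 14.5% beside a shorter one; equal lists gave 58.6%, 50.4% and 18.6%.

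The APH over HU median was -0.32 scaled over all loops, -0.033 from observed over expected and -0.094 relative to span class. Loops higher in APH and in HU numbered 0 and 61 over all loops, 9 and 13 by observed over expected, 3 and 11 relative to span class, and 0 and 5 past 2-fold. With vehicles exchanged the neighbours' HU median stood 0.011 above that of other shared loops, in place of 0.037. The cause of these changes was not tested. The alternatives of equal lists for anchors, of listing patterns and of nesting were chosen after seeing the data.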
